A study of Mus musculus with 31 samples.

Results

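miR-31 was followed through both mature arms of its precursor, mmu-miR-31-5p and mmu-miR-31-3p, in lungs of mice that breathed cigarette smoke and of mice that breathed room air. The 2 members were taken by name from the 650 miRNAs of the array, with all 4 probes that carry those names. They were selected on their higher levels in smoke-exposed lungs in these same arrays, so their smoke minus control differences are given as a description, without p-values. Because both arms were selected for a rise, the averaged difference between their changes is not free of that choice either.

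All lungs came from female BALB/c mice, an inbred laboratory strain. One set of mice received smoke for 4, 6, 8 or 12 weeks and control mice breathed room air for the same times, which gives 8 groups and 31 arrays. There were 4 arrays in each group except 12 weeks Smoke, which has 3. The sources used here give neither mouse age nor smoke dose. They also do not say that the arrays of a group came from separate animals, so p-values measure the spread between these arrays alone, and that spread may be technical. Whole lung holds many cell types, and fewer cells of a type cannot be told apart from less of a miRNA per cell.

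A miRNA gene is transcribed as a long precursor, cut to a hairpin in the nucleus and cut again by Dicer to a duplex of 2 arms. One strand is usually loaded into an Argonaute protein and directs it to messenger RNAs that pair with its seed, while the partner strand is mostly degraded. For miR-31 the 5p strand is the usual guide. miR-31-5p is known from epithelial cells of the skin and airway, is raised in inflamed human skin, and targets the Hippo pathway kinase LATS2 in human lung cancer cells. Because both arms come from 1 hairpin, their ratio is set after transcription, by which strand is kept and how long it lasts.

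The mature arms are shown because every value below rests on them. They are RefSeq sequences of build GRCm38.p6, 5′ to 3′, with the seed (bases 2 to 8) in capitals. Both lie on the minus strand of chromosome 4, miR-31-5p at chr4:88910614-88910635 and miR-31-3p at chr4:88910577-88910599.
mmu-miR-31-5p: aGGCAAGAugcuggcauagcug
mmu-miR-31-3p: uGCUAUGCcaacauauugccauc
The seeds differ, so the arms pair with different sites. Among 1738 mature mouse miRNAs of the RefSeq table, 0 others share the seed of miR-31-5p and 0 others share that of miR-31-3p. The hairpin Mir31 spans 106 bases at chr4:88910557-88910662, minus strand, and is shown with the arms in capitals to place them on its stem.
Mir31 hairpin: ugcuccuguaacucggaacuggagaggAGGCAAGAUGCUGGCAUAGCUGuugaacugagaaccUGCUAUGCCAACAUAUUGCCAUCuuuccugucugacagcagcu
Only 14 bases separate the arms, and in the RNAfold prediction 17 of the 22 bases of miR-31-5p pair with bases of miR-31-3p. In the RefSeq annotation Mir31 lies within the lncRNA Gm49890, and the nearest protein-coding genes on its sides are Ifne, an epithelial type I interferon, and Mtap, an enzyme of methionine salvage.

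Each member has 2 probes of 10 spots on the array. The brighter one stands for the miRNA, and the dimmer one serves as a second reading. The used probe of miR-31-5p gave scanner intensities of 91.6 to 429 and that of miR-31-3p 20.8 to 77.2, both above background on all 31 arrays. The 95th percentile of negative control spots was 5.78 to 7.84. The dimmer probe of miR-31-5p was also detected on 31 arrays and that of miR-31-3p on 27, the exceptions being 4 control arrays. Levels below are log2 of the intensity divided by the array's own 75th percentile over the 385 probes detected everywhere, so a negative value only means dimmer than that percentile. The 2 arms are read by different probes, and their levels do not give their relative abundance.

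miR-31-5p was higher after smoke at 4, 6 and 12 weeks and not at 8 weeks, although at 4 weeks normexp background correction turned the difference, to -0.27 log2. At 4 weeks the smoke arrays had log2 levels of -2.94, -2.75, -2.80 and -2.92, against -3.27, -3.40, -3.45 and -3.65 on the control arrays. At 6 weeks they had -2.996, -2.68, -2.97 and -2.92, against -3.42, -3.41, -3.43 and -3.47 in controls. All 8 smoke arrays of these durations lay above every control array of the same duration. At 8 weeks the smoke arrays had -3.02, -3.26, -3.10 and -2.81, against -3.04, -3.02, -2.96 and -3.15 in controls, and the groups overlapped. At 12 weeks the 3 smoke arrays had -2.83, -2.92 and -2.75, against -3.53, -3.27, -3.38 and -3.22 in controls, again with no overlap.

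The mean differences of miR-31-5p, smoke minus control, were 0.59 ± 0.09 log2 (model SE) at 4 weeks, 0.54 ± 0.09 at 6 weeks, -0.0064 ± 0.089 at 8 weeks and 0.52 ± 0.10 at 12 weeks. Averaged over the 4 durations the difference was 0.41 ± 0.05 log2, or 1.33-fold, over 15 smoke and 16 control arrays. Of all tested miRNAs, smoke lay above control with no overlap in 23.4% at 4 weeks, 15.8% at 6 weeks, 4.76% at 8 weeks and 16.5% at 12 weeks. These shares describe the arrays and were part of the choice of members, so nothing is read from them about miR-31.

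miR-31-3p had the same order of groups at 4, 6 and 12 weeks and kept a smaller difference at 8 weeks. Its direction turned at 4 weeks with normexp correction (-0.87 log2) and at 8 weeks without scaling (-0.64 log2, where the median miRNA was at -0.857). At 4 weeks the smoke arrays had log2 levels of -5.05, -5.21, -5.17 and -5.06, against -5.60, -5.58, -5.65 and -5.65 in controls. At 6 weeks they had -5.39, -5.16, -5.36 and -5.35, against -5.75, -5.73, -5.68 and -5.61 in controls. Again no smoke array fell among the controls of its duration. At 8 weeks the smoke arrays had -5.29, -5.52, -5.45 and -5.22, against -5.56, -5.49, -5.55 and -5.59 in controls, so that 3 of 4 smoke arrays were above all controls. At 12 weeks they had -5.06, -5.04 and -5.07, a group SD of 0.014, against -5.78, -5.59, -5.75 and -5.61 in controls.

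The differences of miR-31-3p were 0.50 ± 0.06 log2 at 4 weeks, 0.37 ± 0.06 at 6 weeks, 0.17 ± 0.06 at 8 weeks and 0.62 ± 0.07 at 12 weeks, and 0.42 ± 0.03 (1.34-fold) averaged. With normexp correction they were 0.019 at 6 weeks, 0.45 at 8 weeks and 0.060 at 12 weeks. Over all durations together, 14 of 15 smoke arrays were above every one of the 16 control arrays for miR-31-3p and 10 of 15 for miR-31-5p. Neither arm separated all smoke from all control arrays, which 1.47% of tested miRNAs did. All 15 smoke arrays were above the control median for each arm. Within each of the 4 slides the averaged difference was positive for both arms, 0.30 to 0.54 log2 for miR-31-5p and 0.36 to 0.42 for miR-31-3p. At 8 weeks alone it was 0.017, -0.24, -0.14 and 0.34 log2 for miR-31-5p on slides 1, 2, 3 and 4. For miR-31-3p it was 0.27, -0.029, 0.097 and 0.36 log2. These values split the difference on which the arms were chosen, so they are a description and no replication. Slide 4 gives 3 durations, since it holds no 12-week smoke array. Smoke arrays always occupied the first row of positions on a slide and control arrays the second, so row and smoke cannot be told apart. Each duration kept to its own column of positions on every slide, so column and duration cannot be told apart either.

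**Figure D1:**
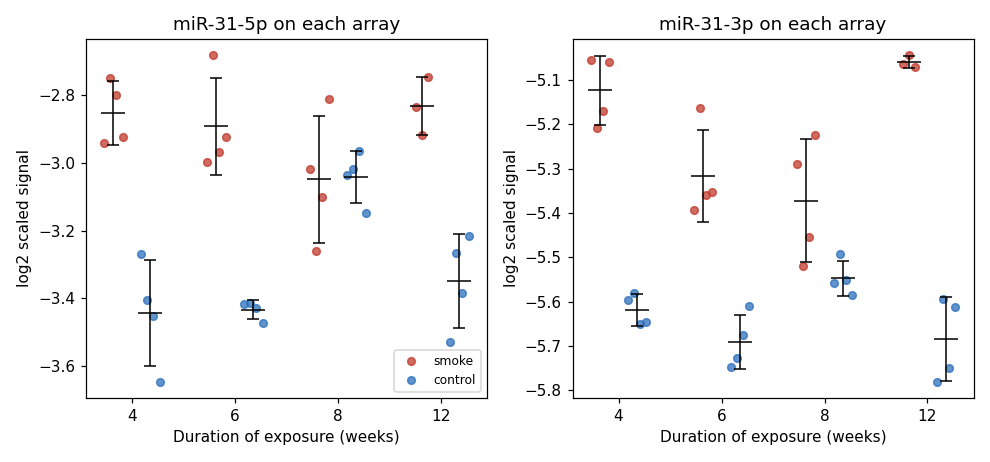
Log2 scaled signal of miR-31-5p (left) and miR-31-3p (right) on each array, by weeks of exposure, smoke in red left of control in blue. Bars are group means with SD. With this scaling smoke and control separate at 4, 6 and 12 weeks for both arms, and at 8 weeks the control group of miR-31-5p sits at -3.04, level with smoke at -3.05.

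The second probes gave nearly the same pattern. The dimmer probe of miR-31-5p differed between smoke and control by 0.52, 0.48, -0.048 and 0.47 log2 at 4, 6, 8 and 12 weeks, and that of miR-31-3p by 0.40, 0.34, 0.21 and 0.64 log2. Their averages were 0.36 and 0.40 log2. With the scaled scanner intensities, both readings of each arm thus have the smallest difference at 8 weeks. The choice of background correction mattered more: with normexp correction and an offset of 50, the averaged difference was 0.14 log2 for miR-31-5p and -0.084 for miR-31-3p. The difference of miR-31-5p was then -0.27, 0.40, 0.13 and 0.31 log2 at 4, 6, 8 and 12 weeks, lowest at 4 weeks. That of miR-31-3p was then highest at 8 weeks, at 0.45 log2. That correction starts from median spot signals, not from the scanner intensities above. The offset can therefore not be set against the median intensity of miR-31-3p, 39.9. Which step of the correction moved the values was not tested.

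**Figure D2:**
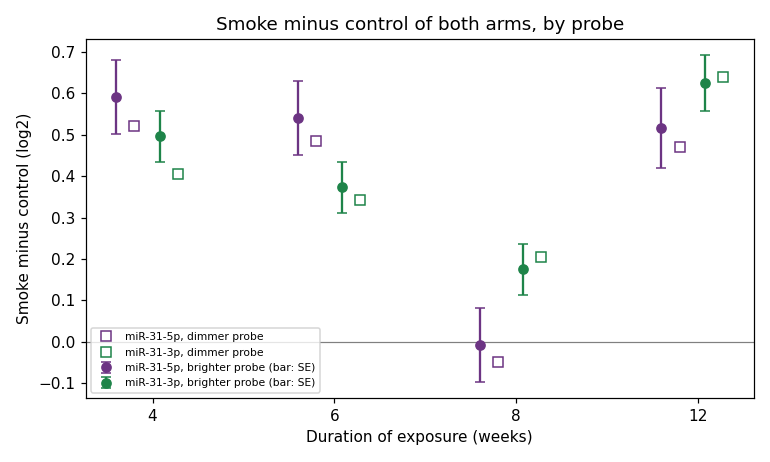
Smoke minus control (log2) at each duration for both probes of both arms. Filled circles are the brighter probes with model SE and open squares the dimmer probes, and both probes of miR-31-5p lie at -0.0064 and -0.048 at 8 weeks while all other points are at 0.17 or more.

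The order of the 8 group means shows where the 8-week exception lies. For miR-31-5p the order was 12 weeks Smoke (-2.83 ± 0.09, SD), 4 weeks Smoke (-2.85 ± 0.09), 6 weeks Smoke (-2.89 ± 0.14), 8 weeks Control (-3.04 ± 0.08), 8 weeks Smoke (-3.05 ± 0.19), 12 weeks Control (-3.35 ± 0.14), 6 weeks Control (-3.43 ± 0.03) and 4 weeks Control (-3.44 ± 0.16). The first 3 of these do not differ beyond their spread, nor do the 8-week groups, nor the last 3. For miR-31-3p the 4 smoke groups came first, at -5.06 ± 0.01 (12 weeks), -5.12 ± 0.08 (4 weeks), -5.32 ± 0.10 (6 weeks) and -5.37 ± 0.14 (8 weeks). The controls followed at -5.55 ± 0.04 (8 weeks), -5.62 ± 0.04 (4 weeks), -5.68 ± 0.09 (12 weeks) and -5.69 ± 0.06 (6 weeks). Neighbours at 12 and 4 weeks Smoke, at 6 and 8 weeks Smoke, and among the last 3 controls lie within the larger of their SDs.

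Control mice alone were compared across durations, a comparison without smoke arrays in its contrast. The same control arrays enter the smoke minus control differences on which the members were chosen. This test is therefore not free of that choice, and its p is no independent evidence. Since each duration had its own column of positions on the slides, a change between durations cannot be told apart from column position. miR-31-5p changed between durations among controls, with a range of 0.40 log2 between the highest and the lowest group mean (limma moderated F test, Benjamini-Hochberg adjusted p 0.0124 over 273 miRNAs). The 4 controls at 8 weeks were each above all 12 other controls. Of all tested miRNAs, 6.96% passed this test. miR-31-3p had a range of 0.14 log2 and did not pass (adjusted p 0.221). The call for miR-31-5p was lost without the third 8-week control (0.38 log2, adjusted p 0.0601), and among 4, 6 and 12 weeks alone the range was 0.094 log2 (adjusted p 0.63).

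The smoke minus control difference ranged over durations by 0.60 log2 for miR-31-5p and by 0.45 log2 for miR-31-3p. The members were chosen with the difference at each duration in view, so these ranges are a description and no p is given for them. A moderated F test of the differences between smoke effects was passed by 6.96% of all tested miRNAs, from which nothing is read about miR-31. Without 8 weeks the ranges were 0.073 log2 for miR-31-5p and 0.25 log2 for miR-31-3p.

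Array brightness moved with this pattern. The 75th percentile of intensity was 1229 to 1681 on the 8-week smoke arrays and 2337 to 3472 on the 8-week control arrays, with no overlap, while at the other durations the groups overlapped. With log2 of that percentile as a covariate, an alternative chosen after seeing the data, the difference at 8 weeks was -0.057 log2 for miR-31-5p and 0.18 for miR-31-3p. The ranges over durations were then 0.64 and 0.45 log2. Whether the 8-week control arrays differ in handling was not tested.

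The arm difference, log2 of miR-31-5p minus log2 of miR-31-3p on the same array, does not depend on the factor by which an array is divided. At 4 weeks it was 2.11, 2.46, 2.37 and 2.14 log2 on smoke arrays, against 2.33, 2.18, 2.20 and 2.00 on control arrays. At 6 weeks it was 2.40, 2.48, 2.39 and 2.43 with smoke, against 2.33, 2.31, 2.25 and 2.14 in controls. The groups overlapped at 4 weeks and did not at 6 weeks, where smoke was higher. At 8 weeks it was 2.27, 2.26, 2.35 and 2.41 with smoke, against 2.52, 2.47, 2.59 and 2.44 in controls, and here all smoke arrays were lower. At 12 weeks it was 2.23, 2.13 and 2.32 with smoke, against 2.25, 2.33, 2.37 and 2.40 in controls, with overlap.

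**Figure D3:**
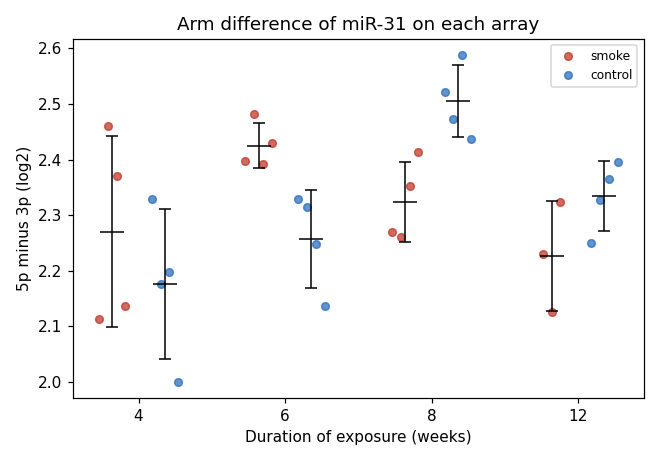
Log2 of miR-31-5p minus log2 of miR-31-3p on each array by weeks of exposure, smoke in red left of control in blue, with group means and SD. Smoke is above control at 6 weeks and below it at 8 weeks, and the groups overlap at 4 and 12 weeks.

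Averaged over durations, smoke and control did not differ in arm difference beyond the spread. The averaged difference was -0.0067 ± 0.040 log2 (95% interval -0.090 to 0.076, adjusted p 0.985 over 48 precursors), and the exact two-sided permutation test within durations gave p = 0.877. Among the 48 precursors with both arms tested, 25% passed this test. Only 3 had a smaller averaged difference than miR-31, which stood 45th by size. Both arms of miR-31 were chosen for a rise, so neither its p-values here nor this rank is free of that choice. The residual SD of the arm difference of miR-31 was 0.10 log2, the 4th smallest of the 48, against a median of 0.21. With normexp correction the averaged arm difference of miR-31 was 0.23 log2, outside the interval above. It did not pass there either (limma adjusted p 0.27).

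By duration, the change of the arm difference was 0.094 ± 0.079 log2 at 4 weeks (limma adjusted p 0.327), 0.17 ± 0.08 at 6 weeks (0.309), -0.18 ± 0.08 at 8 weeks (0.246) and -0.11 ± 0.09 at 12 weeks (0.501). None of the 4 passed with these settings, while 20.8%, 2.08%, 8.33% and 4.17% of the precursors did at 4, 6, 8 and 12 weeks. The exact two-sided permutation test gave 0.0286 at 6 weeks and 0.0286 at 8 weeks, the smallest p that 4 against 4 arrays allow, and 0.0572 for each after Benjamini-Hochberg adjustment over the 4 durations. At 4 and 12 weeks it gave 0.429 and 0.114. The 4-week change passed with normexp correction (0.60 log2, limma adjusted p 0.0274) and was -0.051 log2 without smoke arrays 2 and 3 of that duration. The 8-week change passed with array brightness as a covariate (-0.24 log2, limma adjusted p 0.0466), and the 12-week change was 0.25 log2 with normexp. Arm differences did not overlap, in either direction, in 6.25% of precursors at 6 weeks and in 12.5% at 8 weeks.

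The change of the arm difference was then compared over all 4 durations together. Its range over durations was 0.35 log2 and did not pass (adjusted p 0.117), where 4.17% of precursors did. With array brightness as a covariate it was 0.40 log2 and passed (adjusted p 0.0184). Among control mice alone the arm difference had a range of 0.33 log2 and did not pass (adjusted p 0.0575), although it passed with slide as a block (adjusted p 0.0487) and under some other settings. Of the 48 precursors, 0% passed that test and 10 had an unadjusted p under 0.05. The control at 8 weeks was the highest of the 8 group means of the arm difference, at 2.51 ± 0.06 log2 (SD).

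**Figure D4:**
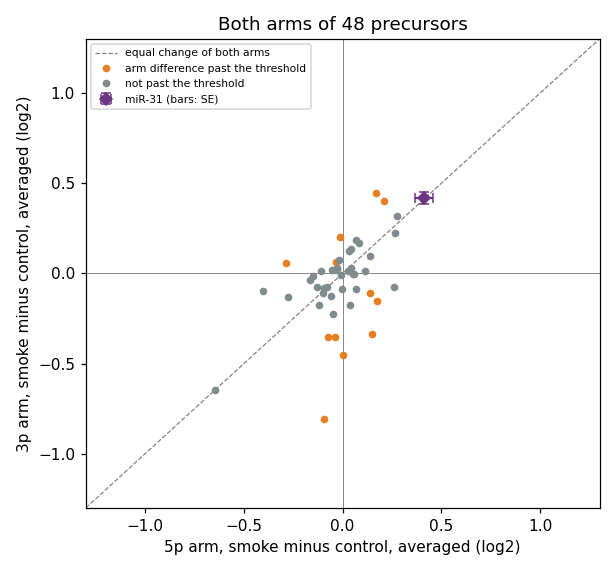
Averaged smoke minus control difference (log2) of the 5p arm (x axis) and the 3p arm (y axis) for 48 precursors, with the line of equal change. miR-31, with SE bars, lies at 0.41 and 0.42, next to that line, and precursors whose arms changed unequally are orange.

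Averaged over durations, 15.4% of the 273 miRNAs rose and 12.1% fell. Both arms passed as risen in 2 of 48 precursors, miR-31, which was chosen for it, and miR-532, at 0.21 ± 0.05 log2 for its 5p arm and 0.40 ± 0.09 for its 3p arm (adjusted p 0.00267 and 0.00125). In 8 other precursors 1 arm rose. The arms of miR-532 changed unequally, by -0.19 log2 (5p minus 3p, adjusted p 0.0399).

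Other precursors showed larger shifts between arms. Among the precursors that passed, the arm difference rose most in miR-193 (0.71 ± 0.25 log2, adjusted p 0.0368), miR-362 (0.48 ± 0.13, 0.0117) and miR-455 (0.45 ± 0.10, 0.00266), each mainly through a lower 3p arm. Among those that passed, it fell most in miR-29a (-0.35 ± 0.11, 0.0186), a family that targets collagen messenger RNAs, in miR-139 (-0.27 ± 0.08, 0.0172) and in the striated muscle miRNA miR-133a (-0.21 ± 0.06, 0.0172). The interval of miR-31 holds none of these values. They were picked as the largest past the threshold and miR-31 for a rise of both arms, so nothing is read from this.

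The arms were also compared array by array within each condition. Over the 15 smoke arrays, Pearson's r of the levels was 0.688 (permutation p 0.00397) and Spearman's rho 0.564 (0.0307). Over the 16 control arrays r was 0.702 (0.00247) and rho 0.724 (0.00184). After group means were subtracted, r was 0.625 with smoke (0.0123, rho 0.379 with p 0.166) and 0.572 in controls (0.0203, rho 0.576 with p 0.0214). Over these 4 relations the Benjamini-Hochberg adjusted p of r was 0.00794, 0.00794, 0.0164 and 0.0203 in the order given, and that of rho 0.0409, 0.00736, 0.166 and 0.0409. The permutations moved deviations across groups and did not allow for the subtracted means, so p-values of deviations are likely too small.

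**Figure D5:**
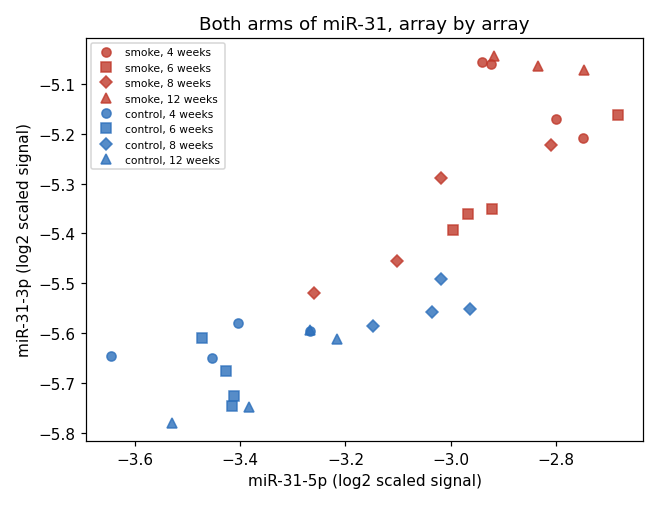
Log2 scaled signal of miR-31-5p (x axis) against miR-31-3p (y axis) on 31 arrays, smoke in red and control in blue, with 1 symbol per duration. Controls at 8 weeks (blue diamonds) lie to the right of other controls and, as a group, slightly higher. Their mean of miR-31-3p is -5.55, against -5.62, -5.68 and -5.69 at 4, 12 and 6 weeks.

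Without the 2 arrays farthest from the median of miR-31-5p, r of the levels was 0.581 with smoke and 0.568 in controls, and r of the deviations was 0.222 with smoke and 0.441 in controls. The relation of deviations among smoke arrays therefore rests on those 2 arrays. It also depends on the probe, since with the dimmer probe of miR-31-3p it was 0.284 in smoke (permutation p 0.308) and 0.284 in controls (permutation p 0.286). With quantile scaling it was -0.259 in smoke and 0.108 in controls, and with scaling on all probes 0.896 and 0.907. Arms of an array share its RNA, labelling and scaling.

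Next, the miRNAs whose levels over the 31 arrays were most like each arm were named, out of 206 others detected on every array. Closest to miR-31-5p were miR-429-3p (Pearson's r 0.893), miR-146a-5p (0.867), miR-146b-5p (0.865), miR-31-3p itself (0.865, rank 4) and miR-183-5p (0.828). Closest to miR-31-3p were miR-146b-5p (0.911), miR-31-5p (0.865, rank 2), miR-21-5p (0.857), miR-429-3p (0.802) and miR-183-5p (0.789). These r are descriptions, since all these miRNAs differ between smoke and control on shared arrays. miR-429 belongs to the miR-200 family, which represses Zeb1 and Zeb2 in epithelial cells, and miR-183 to an epithelial and sensory cell cluster.

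Within groups the neighbours were others. After group means were subtracted, miR-31-5p was closest to miR-16-5p (0.839), miR-181c-5p (0.807), miR-532-5p (0.794), miR-152-3p (0.781) and miR-93-5p (0.773), and miR-31-3p stood at rank 34 (0.601). miR-31-3p was closest to miR-148a-3p (0.773), miR-335-5p (0.731), miR-126-5p (0.721), miR-20a-5p (0.698) and miR-19b-3p (0.689), with miR-31-5p at rank 17. No name occurs in both of these lists. Of these 10, miR-532-5p and miR-20a-5p rose and miR-181c-5p fell in the averaged comparison (adjusted p 0.00267, 0.0315 and 0.00015). Of all tested miRNAs 15.4% rose and 12.1% fell there.

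Inflammation-responsive miRNAs were listed as the setting of miR-31 in smoke-exposed lung. In the averaged comparison 6 of 7 rose, against 15.4% of all tested miRNAs. The median was 0.88 log2 over the 7, against -0.0048 over all 273. The largest was miR-135b-5p at 4.36 log2, against controls at the measurement floor, so that value depends on the floor. miR-146b-5p rose by 1.24 ± 0.04 log2 and miR-146a-5p by 0.43 ± 0.08, both brakes on signalling through Traf6 and Irak1. miR-21-5p, raised in many inflamed tissues, rose by 1.20 ± 0.05 log2, and miR-155-5p, a miRNA of activated leukocytes, by 0.54 ± 0.11. The CREB-regulated miR-132-3p rose by 0.88 ± 0.09, while its cluster partner miR-212-3p was at 0.082 ± 0.12 and did not pass (adjusted p 0.649). The list was drawn up with results of these arrays known and is no independent evidence.

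At 8 weeks these miRNAs did not share 1 course. miR-146a-5p was at 0.078 log2, against 0.48, 0.50 and 0.64 at 4, 6 and 12 weeks, and miR-146b-5p at 0.85, against 1.28, 1.41 and 1.42. miR-21-5p was at 1.08 log2 at 8 weeks and 0.97 at 4 weeks. miR-429-3p, which is not in that list, was at 0.0098 log2 at 8 weeks, against 0.37, 0.37 and 0.32 at 4, 6 and 12 weeks. That resembles the course of miR-31-5p. But miR-429-3p was named for its correlation with miR-31-5p on these arrays, so the likeness is no separate finding. These comparisons share control arrays with miR-31.

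Markers of cell types that hold miR-31 or neighbour it were read on the same arrays. Of all 273 tested miRNAs 15.4% rose and 12.1% fell in the averaged comparison, and the counts below are descriptions beside those shares. Of 10 epithelial miRNAs 3 rose, miR-429-3p (0.27 ± 0.03 log2), miR-182-5p (0.35 ± 0.06) and miR-183-5p (0.39 ± 0.06), and 0 fell, with a list median of 0.099. The summed scaled level of these 10, on a linear scale and not in log2, was 6.74 to 8.85 on smoke arrays and 6.54 to 7.80 on control arrays. Of 7 leukocyte miRNAs 3 rose (miR-155-5p, miR-146a-5p and miR-342-3p) and 2 fell (miR-142-3p and miR-142-5p, by 0.65 and 0.65 log2). The linear sums of these 7 were 8.05 to 14.5 with smoke and 9.16 to 12.3 in controls. Whether cell composition takes part in the difference of miR-31 was not tested.

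The lung label was read against the same lists. Both endothelial miRNAs, miR-126-3p and miR-126-5p, were detected on all 31 arrays, and miR-126-3p was at -0.13 ± 0.04 log2 (adjusted p 0.00735). Neither smooth muscle miRNA passed, and neither did the erythroid pair or the 3 tested striated muscle miRNAs. The summed striated muscle level, on a linear scale, was 1.34 to 7.18 on smoke arrays and 0.85 to 6.79 on control arrays. Without the 3 arrays highest in muscle miRNAs, the averaged difference was 0.41 log2 for miR-31-5p and 0.42 for miR-31-3p. The liver miRNA miR-122-5p was detected on 9 of 15 smoke arrays and 2 of 16 control arrays. Its scaled level was at the floor on all control arrays and reached 1.57 log2 on the highest smoke array, 1 of the 3 at 12 weeks. The averaged difference, measured against the floor, was 1.02 ± 0.51 log2 and did not pass (adjusted p 0.139). Whether this moves with the difference of miR-31 across arrays was not tested.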

How the data were processed

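Total RNA of 31 lung samples was labelled with Cy3 and read on 1-colour Agilent mouse miRNA arrays, per the labels. The deposited spot values are scanner intensities. Feature Extraction 10.7.3.1 subtracted background and detrended them, without normalization between arrays, according to the file headers. The authors' deposited series table holds log2 values, normalized in a way that no source used here states. Array medians of that table are 2.71 to 2.85, its correlation with the scaled intensities is 0.981 to 0.989 per array, and it was used as an alternative.

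Control and outlier spots were left out and the spots of a probe averaged. A probe counted as detected when 50% of its spots were above background. Arrays were divided by their 75th percentile (1018 to 3725) and a floor of log2 -6.74 was set. The brightest probe stood for a miRNA. miRNAs had to be detected on 75% of arrays in at least 1 group to be tested, which left 273. limma 3.58.1 in R 4.3.3 fitted 1 mean per group (23 residual degrees of freedom). Adjusted p-values are Benjamini-Hochberg, with a threshold of 0.05. Arm correlations used 100000 resamples, which moved values freely across the groups of a condition. Array number limits the precision. The fits were tested on simulated data. RNAfold is of ViennaRNA 2.7.2.

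Named miRNAs are both arms, the 5 most correlated with each, a list of 7 inflammation-responsive miRNAs, the 3 largest shifts between arms in each direction among precursors past the threshold, and seed-sharing miRNAs. The members, lists, tests and alternatives were chosen with earlier results of these data known. Same-numbered smoke and control arrays shared a slide at 4, 6 and 8 weeks but not at 12 weeks. They correlated at -0.218 to 0.401, with 7 of 15 pairs over 0.1, all 7 on a shared slide. The 12-week pairs were at 0.0809, -0.167 and -0.218. The main fit did not pair arrays, and slide and replicate number were used as blocks only in alternatives. Alternatives were other scalings, background correction (on median spot signals, since mean signals were not used here), probes, floors, filters, blocks and left-out arrays.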

Additional observations from a re-analysis of the deposited data

Results flagged for a closer look

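The smoke minus control difference of miR-31-5p had a range of 0.596 log2 over the 4 durations, near 0 at 8 weeks and between 0.52 and 0.59 log2 at 4, 6 and 12 weeks. That of miR-31-3p had a range of 0.450 log2, between 0.17 at 8 weeks and 0.62 at 12 weeks. Both stood out in a moderated F test of the difference between durations, fitted over all miRNAs, but the arms were chosen with these differences in view, so no p is given and they are no independent evidence. Neither passed that test without 8 weeks, with scaling on all probes or with normexp correction. Groups of 3 arrays were not examined for outlying arrays. Among 21 group and quantity combinations with 4 arrays, 0 held an array far from the others of its group by Dixon's test.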

How the results depend on the processing

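Under normexp background correction the averaged difference of miR-31-5p was 0.142 log2 and that of miR-31-3p -0.0840, and at 4 weeks they were -0.273 and -0.870. That correction, on median spot signals with an offset of 50, moved the median of all miRNAs to -0.171 log2, against -0.00479, at the average. Relative to that median the averages were 0.313 and 0.0871. With no scaling, which moved that median to -0.152 (8 weeks: -0.857), the averages were 0.264 and 0.270 and miR-31-3p at 8 weeks was -0.645. Relative to that median the averages without scaling were 0.416 and 0.422. The deposited table gave 0.300 for miR-31-3p, and without 8 weeks, chosen after seeing the data, miR-31-5p averaged 0.549. Leaving out each array in turn gave averages of 0.391 to 0.428 for miR-31-5p and 0.404 to 0.430 for miR-31-3p.

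The control durations of miR-31-5p no longer passed with normexp (0.708, adjusted p 0.254) or without 8 weeks (0.0936), and ranged from 0.376 to 0.460 with 1 array left out. Those of miR-31-3p passed with no scaling (1.08, adjusted p 0.0327) and with the scanner's summed signal (0.336, adjusted p 0.00105). The range of the smoke effect of miR-31-5p over durations, a description, missed the threshold of the F test with scaling on all probes (0.640), normexp (0.670) or without 8 weeks (0.0733). That of miR-31-3p did so with scaling on all probes (0.567), normexp (1.32), its dimmer probe (0.434, also with both dimmer probes 0.434), the deposited table (0.334), without the 3 arrays highest in muscle miRNAs (0.422) or without 8 weeks (0.252).

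The arm difference among control durations passed at 0.330 with scaling on all probes, no scaling, detection on every array, slide as a block (adjusted p 0.0487) and without 2 smoke arrays of 4 weeks, and at 0.796 with normexp and 0.368 with the brightness covariate. Leaving out 1 array gave 0.271 to 0.381, and it passed without the first 4-week control (adjusted p 0.044) or the second 6-week smoke array (0.0397). Its smoke effect between durations passed with the brightness covariate (0.403). The averaged arm difference passed under none of the alternatives run and lay between -0.0607 and 0.226.

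The correlation of deviations ranged over settings from -0.259 to 0.968 in smoke arrays and from 0.00445 to 0.989 in controls. It was highest with no scaling in smoke arrays and with normexp in controls, and 0.902 in smoke arrays without 2 of those at 4 weeks. It missed the threshold, in smoke arrays, at -0.259 with quantile scaling, 0.403 with summed signal, 0.421 with the mean of all probes, 0.284 with the dimmer probe of miR-31-3p, 0.233 with both dimmer probes and 0.282 with the deposited table. In controls it missed the threshold at 0.108 with quantile scaling, 0.00445 with summed signal, 0.284 with the dimmer probe of miR-31-3p, 0.382 with both dimmer probes and 0.166 with the deposited table. With 1 array left out it was 0.457 to 0.765 in smoke arrays and 0.409 to 0.695 in controls. The cause of these shifts was not tested.

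Counts of passing miRNAs moved too: 75 averaged (12 to 113 over settings), 19 among control durations (4 to 150) and 19 between durations (0 to 167), and for arm differences 12 (0 to 18) and 2 (0 to 23). The lowest of each came from normexp, and for the last also from leaving out 2 smoke arrays of 4 weeks. With 1 array left out they were 70 to 90, 7 to 43 and 10 to 67 for miRNAs, and 9 to 12 and 0 to 3 for arm differences. The 43 and 7 came without the second 4-week smoke array and the fourth 4-week control, the 67 and a 10 without the fourth 8-week smoke array and the fourth 4-week control, and the 0 without the second 8-week control or the first or second 8-week smoke array. With the replicate block the averages were 0.409 for miR-31-5p and 0.420 for miR-31-3p, and no call for miR-31 changed. With a floor 4 times higher all 31 arrays of miR-31-3p lie at the floor, so it gives no value for that arm, the arm difference or the correlations.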
